A study of Mus musculus with 36 samples.

Results

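Spleen RNA of mice that drank oil palm phenolics (OPP, a water-soluble polyphenol extract of the oil palm) was compared between 4 weeks and 1 week, in 3 arrays against 3, which are 6 of the 36 arrays of the series and 6 of its 18 spleen arrays. All 23982 probes of the deposited value table were used. Every mouse was a male BALB/c carrying J558 cells, a mouse myeloma line, injected under the skin at the dorsum of the neck, and ate standard chow. The OPP 4-week mice were 10 weeks old and the OPP 1-week mice 7 weeks old, and both drank OPP at 1500 ppm gallic acid equivalents. Water-drinking mice of the same ages at 4 weeks and at 1 week (3 arrays each) were set beside them. The arrays of 6-week-old mice at 18 hours (3 with OPP and 3 with water) entered the estimate of spread. No group went without J558 cells, so age, time on the drink and time with the tumour cells cannot be told apart. The labels give both the listed time and a fixed 4 weeks for the inoculation, so what the times count from is not settled. Nor do they say whether an array holds 1 mouse or a pool, and the p-values therefore measure the spread between these arrays, which may be technical.

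The spleen filters blood and houses B and T cells in its white pulp and iron-recycling macrophages in its red pulp. Red pulp macrophages take up old red cells, break down their haem and return the iron to the plasma. Stromal cells of the white pulp secrete chemokines that place B and T cells. Heat shock genes encode chaperones that keep proteins folded, and they are switched on together by the factor HSF1, which binds repeats of a short element in their promoters. In the mouse the spleen also makes red cells, platelets and granulocytes, more so when a tumour grows elsewhere.

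Each deposited value is a probe's ratio to its own median over the 18 spleen arrays, so a value says nothing of how abundant a transcript is, and the labelled tissue could not be checked against absolute levels of its markers. Values below are log2 ratios after each array's median was set to 0, and differences are OPP 4 weeks minus OPP 1 week on that log2 scale, where 1 is a factor of 2. Calls are from limma with Benjamini-Hochberg adjustment over all probes at 0.05, and a gene with several probes is represented by the probe of highest SD. Before centring, the array medians were 0.08 in each OPP 4-week array, against -0.06, -0.06 and -0.05 in the OPP 1-week arrays. Without centring the median difference of all probes was 0.17, against 0.03 after it. Among the arrays compared, OPP 1-week replicate 1 stood apart, with a median of 1.26 over 13 hepatocyte markers and of -2.69 over 16 pancreatic acinar markers. OPP 4-week replicate 3 had a median of -0.73 over 19 neutrophil genes, against -0.10 and -0.09 in the other OPP 4-week arrays.

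Much of the measured transcriptome differed between the times, with more probes up than down. At 4 weeks 3381 probes rose (14.1% of all probes) and 1230 fell (5.13%). By gene, 2502 of 14739 rose (17%) and 775 fell (5.26%), and these shares are the background for every list below. The 3 arrays of one time lay wholly above or below those of the other at 10343 probes (43.1%). Most differences were modest, with a median of 0.44 among probes that rose and -0.38 among those that fell. Leaving out OPP 1-week replicate 1 left 2018 calls, leaving out OPP 4-week replicate 3 left 2124, and leaving out OPP 4-week replicate 1 left 2611. Of the 3381 rises, 1216 stayed called whichever of the 6 compared arrays was left out, and of the 1230 falls 290 did. Of 3423 genes with several probes, 35 had probes called in both directions, and where another probe of a named gene had the opposite sign this is given below.

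Macrophage genes were among the lists with the largest share of rises. Of 24 measured, 18 rose (75%) and none fell, with a median difference of 0.66, against 0.05 over all genes. Vcam1, an adhesion molecule of red pulp macrophages and stroma, had values of 0.66, 0.66 and 0.89 at 4 weeks, against -0.31, -0.21 and -0.20 at 1 week. It rose by 0.98 (SE 0.11, limma adjusted p = 0.000523), and the groups did not overlap. Mertk, a receptor for dying cells, was at 0.37, 0.44 and 0.49 at 4 weeks, against -0.58, -0.38 and -0.47 at 1 week, a rise of 0.91 (SE 0.11). C1qb rose by 0.93, C1qc by 0.82 and C1qa by 0.77, the 3 chains of complement C1q, which tags debris for uptake. Spic, the transcription factor of red pulp macrophages, was at 0.28, 0.01 and 0.16 at 4 weeks, against -0.96, -0.32 and -0.65 at 1 week, and it rose by 0.79 (SE 0.18). Adgre1, which encodes the F4/80 antigen, rose by 0.76 on the probe used and differed by -0.09 on its other probe, and Mrc1, a mannose receptor, by 0.88. Cd163, the receptor for haemoglobin bound to haptoglobin, rose by 0.58. Marco differed by 0.50 and Siglec1 by 0.36, neither past the threshold, although both are markers of marginal zone macrophages. Among receptors 9 of 13 rose, and among secreted or lysosomal products 9 of 11. In a whole organ, more cells of a type and more RNA per cell cannot be told apart. Of the 18 rises, 13 stayed called whichever array was left out, those given above with values per array and the C1q chains among them. That of Cd163 was lost without OPP 1-week replicate 2 (0.51), OPP 4-week replicate 1 (0.53) or OPP 4-week replicate 3 (0.48).

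Of 15 genes of iron and haem handling, 7 rose (46.7%) and none fell, with a median of 0.26. Hmox1, the enzyme that opens the haem ring, was at 0.35, -0.04 and 0.26 at 4 weeks, against -0.96, -0.75 and -0.57 at 1 week, and it rose by 0.95 (SE 0.17, limma adjusted p = 0.00167). Blvra, which reduces the biliverdin so made, rose by 0.68. Slc40a1, the iron exporter ferroportin, was at 0.70, 0.54 and 0.59 at 4 weeks, against -0.41, -0.15 and -0.02 at 1 week, a rise of 0.80 (SE 0.11). The groups overlapped for none of these. Among transport and storage genes, Slc11a1, the phagosomal metal transporter, rose by 0.69, Trf, encoding transferrin, by 0.76, and the ferritin chains Fth1 by 0.76 and Ftl1 by 0.32. All but Ftl1 stayed called whichever array was left out. Tfrc, the transferrin receptor that erythroid precursors use, differed by 0.26 and did not pass. Members below 0 did not pass either. Among them Hp, which encodes haptoglobin, differed by -0.76 without overlap, and Hpx by -0.49 and Hamp by -0.29 with overlap.

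**Figure D1:**
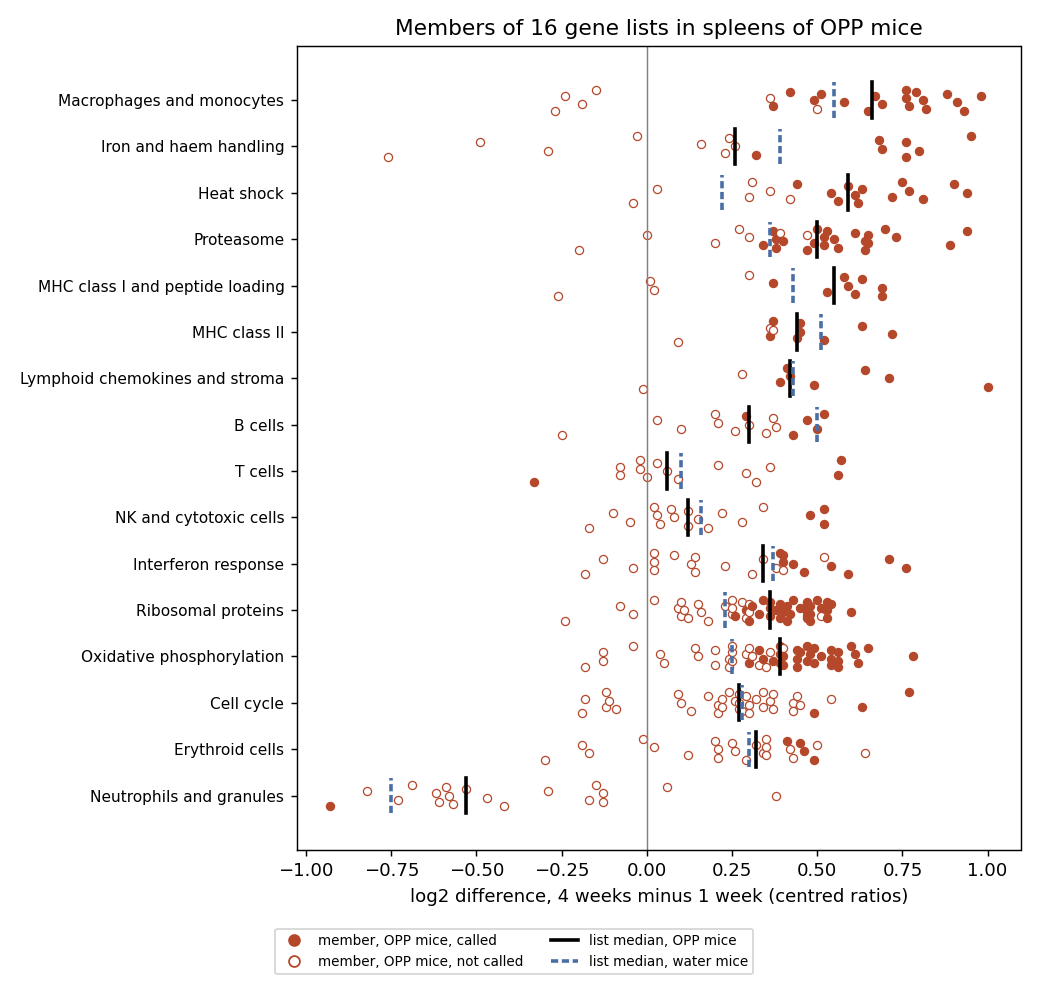
Each row is a gene list, and the horizontal axis is the difference in centred log2 ratio, OPP 4 weeks minus OPP 1 week, with a point for each measured gene (filled where called), a solid line at the list's median and a dashed line at its median in water-drinking mice. Macrophage, heat shock and proteasome genes lie mostly above 0 (medians 0.66, 0.59 and 0.50), whereas neutrophil genes lie mostly below it (median -0.53).

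Heat shock genes rose together. Of 19 measured, 13 rose (68.4%) and none fell, with a median difference of 0.59. Hspa1a, Hspa1b, Hsp90ab1 and Hsf1, which encodes HSF1, were on the list but were not measured. The list's median per array was 0.71, 0.32 and 0.63 at 4 weeks, against 0.11, -0.06 and 0.09 at 1 week, so OPP 4-week replicate 2 was the lowest of its group but still above every 1-week array. Co-chaperones led. Dnajb1, which hands clients to HSP70, was at 1.11, 0.70 and 1.16 at 4 weeks, against 0.06, -0.06 and 0.14 at 1 week, a rise of 0.94 (SE 0.15, limma adjusted p = 0.0011). Bag3, which steers HSP70 clients to autophagy, was at 1.06, 0.62 and 1.07 at 4 weeks, against 0.01, -0.09 and 0.14 at 1 week, a rise of 0.90 (SE 0.11, limma adjusted p = 0.000523). Partners of HSP90 followed, with Chordc1 up by 0.81, Stip1 by 0.77, Fkbp4 by 0.72 and Ahsa1 by 0.61. Among the chaperones themselves, Hsph1 of the HSP110 family was at 1.25, 0.63 and 1.39 at 4 weeks, against 0.49, 0.08 and 0.44 at 1 week, and it rose by 0.75 (SE 0.19). Hsp90aa1, the inducible HSP90, rose by 0.59, and the mitochondrial pair Hspd1 and Hspe1 by 0.62 and 0.54. The small heat shock genes Hspb8 and Hspb1 rose by 0.63 and 0.56, and Hspa4 by 0.44. Other probes of Hsp90aa1 differed by -0.15 and 0.24, and that of Hspa4 by -0.31. Not passing were Dnajb4 at 0.42, Cryab at 0.36, Hspa4l at 0.31 and the constitutive Hspa8 at 0.30, although the other Hspa8 probes rose by 0.31 and 0.42. Dnaja1 at -0.04 and Hsf2 at 0.03 were nearest to 0. Without OPP 4-week replicate 3 the count was 8. The 8 that stayed called whichever array was left out were Bag3, Dnajb1, Chordc1, Stip1, Fkbp4, Ahsa1, Hspb8 and Hspe1. Hsph1 lost its call without OPP 1-week replicate 2 (0.62), OPP 4-week replicate 1 (0.67) or OPP 4-week replicate 3 (0.60).

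**Figure D2:**
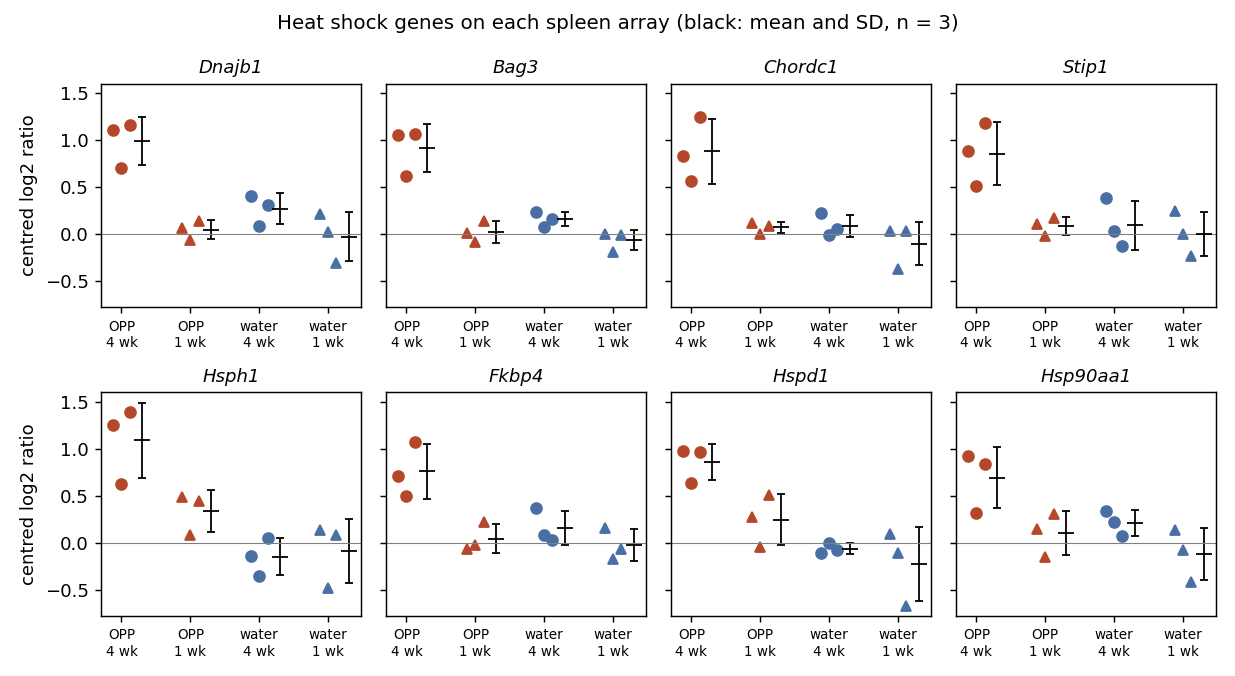
Centred log2 ratios of heat shock genes on the vertical axis, with 1 point per spleen array, the group mean and SD in black (n = 3), and OPP and water at 4 weeks and 1 week along the horizontal axis. For Dnajb1 and Bag3 all 3 OPP 4-week arrays lie above the OPP 1-week arrays, which are between -0.09 and 0.14.

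Because the heat shock genes moved as a group, their promoters were read from RefSeq (GRCm38.p6) as 250 bases before to 50 after the gene start, and searched for the heat shock element written TTCNNGAA or GAANNTTC. Each of these reads the same on both strands, and overlapping matches were each counted. Of the 13 genes that rose, 12 have a window in the table, 15 windows in all, and 9 of these (60%) hold the element, as do 15.1% of all 32851 RefSeq windows and 13% of windows of all genes that rose. Windows of 5 of the genes are printed 5′ to 3′ on the gene's strand, with every match in capitals, since they run from several matches to none. Chordc1 has 5 matches, at chr9:18292017-18292316 on the plus strand. Hsph1 has 3 in the window shown, at chr5:149636287-149636586 on the minus strand. Hspe1 has 3, at chr1:55087898-55088197 on the plus strand. Bag3 has 1, at chr7:128523333-128523632 on the plus strand, and Dnajb1 has none, at chr8:83607925-83608224 on the plus strand.
Chordc1: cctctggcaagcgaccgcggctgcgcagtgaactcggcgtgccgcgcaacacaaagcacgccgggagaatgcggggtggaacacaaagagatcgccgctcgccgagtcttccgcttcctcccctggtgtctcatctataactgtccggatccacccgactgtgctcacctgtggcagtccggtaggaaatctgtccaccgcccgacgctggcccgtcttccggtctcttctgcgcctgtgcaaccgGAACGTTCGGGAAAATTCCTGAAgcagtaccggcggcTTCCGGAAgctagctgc
Hsph1: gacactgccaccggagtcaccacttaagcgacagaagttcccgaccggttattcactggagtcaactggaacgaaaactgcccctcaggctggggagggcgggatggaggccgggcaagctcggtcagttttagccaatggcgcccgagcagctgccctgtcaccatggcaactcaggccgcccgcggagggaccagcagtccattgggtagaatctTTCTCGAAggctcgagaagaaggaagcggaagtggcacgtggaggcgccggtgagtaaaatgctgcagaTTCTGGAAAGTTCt
Hspe1: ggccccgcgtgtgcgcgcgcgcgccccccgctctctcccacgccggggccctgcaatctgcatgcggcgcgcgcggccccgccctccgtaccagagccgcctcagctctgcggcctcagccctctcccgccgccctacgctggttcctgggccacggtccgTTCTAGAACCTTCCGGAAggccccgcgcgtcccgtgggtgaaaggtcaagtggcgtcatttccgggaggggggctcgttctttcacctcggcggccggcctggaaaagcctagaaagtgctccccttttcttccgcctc
Bag3: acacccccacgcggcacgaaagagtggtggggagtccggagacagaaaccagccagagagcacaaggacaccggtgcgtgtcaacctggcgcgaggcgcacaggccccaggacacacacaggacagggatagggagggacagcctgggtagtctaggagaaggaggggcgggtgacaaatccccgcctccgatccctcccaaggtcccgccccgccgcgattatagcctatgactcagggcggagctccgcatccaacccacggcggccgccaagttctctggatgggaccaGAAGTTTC
Dnajb1: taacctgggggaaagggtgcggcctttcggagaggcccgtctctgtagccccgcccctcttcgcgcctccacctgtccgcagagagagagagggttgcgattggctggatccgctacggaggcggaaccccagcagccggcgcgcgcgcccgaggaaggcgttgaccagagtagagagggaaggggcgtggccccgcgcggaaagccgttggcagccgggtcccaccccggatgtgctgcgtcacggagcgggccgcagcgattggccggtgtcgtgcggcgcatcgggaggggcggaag

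A match in these letters is a description and not a measured site, and the genes searched were listed beforehand as heat shock genes. Among listed genes not called, Dnajb4 and Dnaja1 have 1 match each, Hspa4l and Hsf2 have none, and Cryab and Hspa8 have no window. The 2 genes of the 5 with the largest rises, Dnajb1 and Bag3, have none and 1 match, and Chordc1 with 5 matches rose by 0.81.

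Antigen presentation genes rose in both classes. Of 12 MHC class I and peptide-loading genes, 8 rose (66.7%, median 0.55), and of 11 class II genes, 8 rose (72.7%, median 0.44), with none falling in either. B2m, the light chain shared by class I molecules, was at 0.31, 0.38 and 0.42 at 4 weeks, against -0.30, -0.11 and -0.32 at 1 week, a rise of 0.61 (SE 0.09, limma adjusted p = 0.00106). Its other probe differed by -0.11. The class I heavy chains H2-D1 and H2-K1 rose by 0.69 and 0.63, and H2-T23 by 0.69 on 1 probe and 0.67 on the other. Tap2, part of the peptide pump, rose by 0.37, and the immunoproteasome subunits Psmb8, Psmb9 and Psmb10 rose by 0.59, 0.53 and 0.58. H2-Ab1, a class II chain, was at 0.63, 0.78 and 0.81 at 4 weeks, against -0.23, 0.22 and 0.06 at 1 week, and it rose by 0.72 (SE 0.16). OPP 1-week replicate 1 was the lowest array there, as it was for 6 of the 8 class II genes that rose, and without it 2 of the 11 rose. H2-Ab1 alone among the 8 class II rises stayed called whichever array was left out, and in class I 5 of 8 did (B2m, H2-D1, H2-K1, H2-T23 and Psmb8). Ciita, the master regulator of class II transcription, rose by 0.45, and the invariant chain Cd74 by 0.45. The H2 genes resemble one another, so probes may share signal between them.

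Interferon-response genes rose in part, 9 of 25 (36%) with a median of 0.34. They included Irf1, a transcription factor, at 0.76 and the guanosine triphosphatases Gbp3, Irgm1 and Igtp at 0.71, 0.59 and 0.54. Another Irf1 probe rose by 0.41, but the remaining ones, at 0.11 and 0.15, and the other Irgm1 probe, at 0.13, did not pass. Cxcl9 rose by 0.43, Cxcl10 by 0.40 and Ifit2 by 0.40. Irf1, Gbp3, Irgm1 and Cxcl9 were among the 5 that stayed called whichever array was left out. The interferon element GAAANNGAA, searched on both strands, stood in 62.5% of the 24 promoter windows of this list, and in 8.56% of all RefSeq windows. The windows are those of the list and not of its risers. Its genes were listed as interferon-response genes, so this share says nothing of the difference between the times.

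Of 9 genes listed for lymphoid chemokines, their receptors and stroma, 7 rose (77.8%, median 0.42), among them all 4 chemokines measured. Cxcl13, which attracts B cells into follicles, was at 0.11, -0.10 and 0.16 at 4 weeks, against -0.74, -0.46 and -0.76 at 1 week, a rise of 0.71 (SE 0.15, limma adjusted p = 0.00403). Ccl19, which draws T cells and dendritic cells, rose by 0.64 and Ccl21a by 0.49. Cxcl12, a retention signal for plasma cells and progenitors, rose by 1.00, and its other probes differed by 0.82 and 0.32. Cxcr5, the receptor for Cxcl13 on B cells, rose by 0.41 and the B cell survival factor Tnfsf13b by 0.39, but another Tnfsf13b probe fell by 0.28. Ltb, a lymphotoxin chain, rose by 0.42, while Lta at -0.01 and Madcam1 at 0.28 did not pass. Without OPP 1-week replicate 1, or without OPP 4-week replicate 3, 3 of the 9 rose. Ccl19, Cxcl12 and Cxcl13 stayed called whichever array was left out.

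B cell genes rose less evenly, 5 of 15 (33.3%, median 0.30). Cd79b, a signalling chain of the B cell receptor, was at 0.43, 0.29 and 0.43 at 4 weeks, against -0.13, 0.12 and -0.14 at 1 week, and it rose by 0.43 (SE 0.12, limma adjusted p = 0.0169). Pou2af1 rose by 0.52, Blk by 0.50, Fcrla by 0.47 and Btk by 0.29, whereas Cd79a at 0.20 and Cd22 at 0.30 did not pass. Other probes of Blk differed by -0.20 and of Fcrla by 0.00 and 0.34. Without OPP 1-week replicate 1 none of the 15 was called, with the median at 0.27, and none was called without OPP 4-week replicate 3. Of 15 T cell genes, 2 rose (Cd3g by 0.57, Il7r by 0.56) and Zap70 fell by 0.33. Another Il7r probe fell by 0.30, and another Zap70 probe differed by 0.02. Neither rise of a T cell gene, nor the fall, stayed called whichever array was left out. Among 18 NK and cytotoxic genes, 3 rose, with Ncr1 at 0.52, Klrk1 at 0.48 and the chemokine Ccl5 at 0.52. Klrk1 alone stayed called whichever array was left out, and its other probes differed by -0.30 and 0.01. The transcription factor Xbp1, up by 0.44, was the 1 riser of 10 plasma cell genes and did not stay called in that check. The shares of T cell, NK and plasma cell genes that rose were at or below the 17% of all genes.

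Immunoglobulin probes for variable segments split by chain. These probes were grouped by segment after their values were seen, and segments of a family can be near-identical, so probes are not independent. Of 85 probes for kappa variable segments (IGKV), 46 rose and none fell, with a median difference of 0.63. Of 109 probes for heavy variable segments (IGHV), 7 rose and 4 fell, with a median of 0.09. IGKV9-123 had the largest rise of all probes, at 3.84, 1.31 and 1.94 at 4 weeks, against 0.63, -0.48 and -0.17 at 1 week, a difference of 2.37 (SE 0.47, limma adjusted p = 0.00295). IGKV14-100 rose by 1.56, at 1.99, 1.47 and 1.56 at 4 weeks, against -0.14, -0.04 and 0.50 at 1 week. The constant kappa probe IGKC rose by 0.43. No heavy constant probe was called. IGHG differed by 0.45 and IGHM by 0.34, with groups that overlapped. IGHD differed by -0.04. J558 makes IgA with a lambda light chain. The IGHA probe was at 0.32, 0.21 and 0.25 at 4 weeks, against 0.02, 0.06 and 0.03 at 1 week, without overlap, and its difference of 0.22 did not pass (limma adjusted p = 0.0817). Jchain, which joins IgA into dimers, differed by 0.20 and was high in 1 of the 4-week arrays, at 0.72, -0.32 and -0.39 at 4 weeks, against -0.39, 0.05 and -0.25 at 1 week. Of 3 lambda constant probes 2 rose, and the lambda variable probe rose by 0.50. Without centring 58 kappa and 24 heavy variable probes rose and none fell, and after quantile normalisation 27 kappa probes rose, with 4 heavy probes higher and 6 lower. The kappa count was 20 without OPP 1-week replicate 1 and 21 without OPP 4-week replicate 3.

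**Figure D3:**
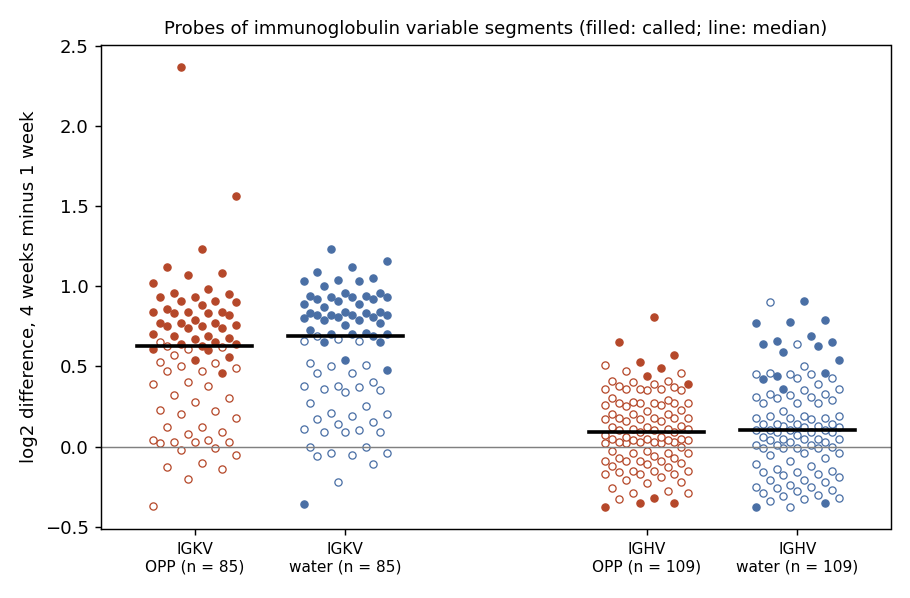
Differences in centred log2 ratio, 4 weeks minus 1 week (vertical axis), for each probe of kappa and heavy variable segments in OPP and in water-drinking mice, with called probes filled and a line at the median. With OPP, kappa variable probes lie mostly above 0 (median 0.63 over 85 probes) and heavy variable probes around 0 (median 0.09 over 109), and with water the medians are 0.69 and 0.10.

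Genes of protein turnover and energy metabolism rose in large numbers. Of 29 proteasome genes, 22 rose (75.9%, median 0.50), 11 of 14 in the core and 11 of 15 in the regulatory particle. The core subunit Psmb4 was at 0.56, 0.56 and 0.66 at 4 weeks, against -0.16, -0.04 and 0.02 at 1 week, a rise of 0.65 (SE 0.10, limma adjusted p = 0.0011). Psmd7 of the lid rose by 0.89 and the base ATPase Psmc5 by 0.73. Psma1 rose by 0.94 on the probe used and differed by -0.06 on its other probe. Of 55 ribosomal protein genes, 34 rose (61.8%, median 0.36), and their rises were small and even, such as 0.53 for Rpl13 and 0.54 for Rps26. Genes of oxidative phosphorylation rose at 30 of 52 (57.7%, median 0.39), in complex I (11 of 22) and in complexes II to V (19 of 30). Ndufa8 of complex I rose by 0.78, Uqcrc2 of complex III by 0.62 and Atp5c1 of the ATP synthase by 0.56. None of these 3 lists had a member that fell. Whichever array was left out, 14 proteasome genes, 24 ribosomal protein genes and 16 of oxidative phosphorylation stayed called. The rise of Psmd7 was lost without OPP 4-week replicate 3 (0.75).

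Glycolytic genes rose at 6 of 13 (46.2%), among them Aldoa by 0.53, Tpi1 by 0.49 and Ldha by 0.48. Of the 6, Tpi1 and Ldha stayed called whichever array was left out. Antioxidant genes rose at 8 of 21 (38.1%, median 0.42). Gstm1, a glutathione transferase, was at 0.43, 0.22 and 0.45 at 4 weeks, against -0.47, -0.46 and -0.42 at 1 week, a rise of 0.82 (SE 0.10, limma adjusted p = 0.000523). Its other probe differed by 0.15, and that of Nqo1 by -0.07. Nqo1, a quinone reductase and a standard target of the factor NRF2, rose by 0.54, Prdx1 by 0.62 and the superoxide dismutase Sod1 by 0.37. The NRF2 targets Txnrd1 at 0.41 and Gclm at 0.51 did not pass. Gstm1, Nqo1, Prdx1 and Hmox1 stayed called whichever array was left out.

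Rgs1, a brake on chemokine receptor signalling, had the largest rise among the 14739 genes with a symbol, which leave out the immunoglobulin segments above. It was at 0.27, 0.90 and 0.87 at 4 weeks, against -1.05, -0.52 and -0.44 at 1 week, a rise of 1.35 (SE 0.21, limma adjusted p = 0.0011), while its other probe differed by 0.32 and did not pass. Dusp1, a phosphatase of stress kinases, rose by 0.86, Klf2 by 0.54 and Fos by 0.48, 3 of the 5 risers among 24 immediate early genes, whose median was 0.02. Rgs1 and Dusp1 stayed called whichever array was left out, and Klf2 and Fos did not. Il1b rose by 0.85 and the NF-kB inhibitor Tnfaip3 by 0.50, among 4 of 21 NF-kB targets (19%), none of which stayed called in that check. The shares of immediate early genes and of NF-kB targets that rose were only a little above the 17% of all genes. Of 20 clock genes, 6 rose and Hlf fell by 0.35. As centred here, the differences of all 13 core loop genes were positive, with a median of 0.28, and 4 of them rose. The negative limb genes Per1 and Per2 rose by 0.48 and 0.56, and Bhlhe40 by 0.63. Another Per2 probe differed by -0.15. Of the 6 rises, 4 stayed called whichever array was left out, those of Per1, Bhlhe40, Csnk1e (0.43) and Tef (0.67). Another probe of Csnk1e was called lower, at -0.36, and so was another of Tef, at -0.37. The rises of Per2 and Nr1d2, like the fall of Hlf, did not stay called in that check. The other Nr1d2 probe differed by -0.06. The time of day of sampling is not in the labels, and its part in these values was not tested.

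Further large rises with groups that did not overlap were Ccl24, an eosinophil chemokine of macrophages, at 1.04, and the Fc receptor Fcgr4 at 1.00. Eif4a2, a translation initiation helicase, rose by 0.97, Car1, a red cell carbonic anhydrase, by 0.96, and Hcar2, the niacin receptor, by 0.95. Ubd, a ubiquitin-like protein induced by interferon, rose by 0.94. Igf1, a growth factor that macrophages also make, rose by 0.94 on 1 probe and by 0.72 on the other. Tmem33, of the endoplasmic reticulum, rose by 0.97 and 0.69 on its 2 probes. Among genes with several probes, 140 rose on every probe and 6 fell on every probe.

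Erythroid and cell cycle genes were called at or below the background share. Of 25 erythroid genes 4 rose (16%, median 0.32), Hbb-b2 by 0.49, Hba-a1 by 0.45, Lmo2 by 0.46 and Slc4a1 by 0.41, and the globin probes may share near-identical sequence. Of 37 cell cycle genes 3 rose (8.11%, median 0.27), Birc5 by 0.77, Tyms by 0.63 and Ccne2 by 0.49. The share of all genes that rose was 17%. The groups did not overlap at 18 of the 25 erythroid and 22 of the 37 cell cycle genes. The 43.1% given above is over all probes and not over 1 probe per gene, so it is not a like background. Both list medians were above the 0.05 of all genes. Another Tyms probe differed by -0.05. Without either OPP 1-week replicate 1 or OPP 4-week replicate 3, the counts were 1 erythroid gene and no cell cycle gene.

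Neutrophil genes were the list with the lowest median, -0.53 over 19 genes, and 1 of them fell. The 12 granule proteins had a median of -0.60, and the 7 surface and cytosol genes one of -0.13. Mpo, the peroxidase of early granules, was at -0.39, -0.48 and -1.26 at 4 weeks, against 0.69, -0.07 and 0.05 at 1 week, a fall of 0.93 (SE 0.32, limma adjusted p = 0.0457). The groups did not overlap, but the call was lost whichever of the 6 arrays was left out, with the difference between -0.66 (without OPP 4-week replicate 3) and -1.09 (without OPP 4-week replicate 1), and it was lost without centring (-0.79). Chil3 differed by -0.82, Ltf by -0.73 and Prtn3 by -0.69, none past the threshold. Of 11 mast cell and basophil genes 2 fell (18.2%, against 5.26% of all genes), Il4 and Ms4a2 by 0.38 each. The list's median was 0.02, and 6 of its differences were positive. Mcpt8 at -0.96 and Prss34 at -0.90 were not called, and their groups overlapped. The fall of Il4 stayed called whichever array was left out. Acute phase genes had a median of -0.25, with Serpina3n up by 0.72 and Cfb by 0.53, and neither rise stayed called whichever array was left out.

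Markers of neighbouring organs varied between single arrays. No gene of 13 hepatocyte or 16 pancreatic acinar markers was called. The hepatocyte median was -0.23, and 0.02 without OPP 1-week replicate 1, and the acinar median was 0.63, and -0.09 without that array. What these markers had to do with the other differences was not tested beyond leaving that array out.

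Falls were smaller than rises, and the counts of both depended on how arrays were scaled. After Mpo, the largest falls with groups that did not overlap were 1700020L24Rik at -0.81, Itgb2l, an integrin chain of granulocytes, at -0.69, and Cars and Prkd1 at -0.67 each. The other probe of Cars differed by 0.30, that of Prkd1 by 0.03 and that of Itgb2l by -0.03. All 4 stayed called without centring, whereas the falls of Mpo, Ms4a2, Hlf and Zap70 did not. Bitter taste receptors Tas2r108 and Tas2r106 also fell, by 0.65 and 0.64. Olfactory, vomeronasal and taste receptors, which spleen is not known to transcribe at more than trace levels, give 1002 genes, of which 109 fell (10.9%) and none rose, with a median of -0.12. Before centring their array medians were 0.00, 0.03 and 0.02 at 4 weeks, against 0.03, -0.01 and -0.02 at 1 week, so they lay near 0 in both groups, and centring moved them to -0.08, -0.06 and -0.06 at 4 weeks, against 0.09, 0.05 and 0.03 at 1 week. Without centring 6895 probes were higher and 334 lower (95.4% higher, against 73.3% as centred), and with the sensory receptors as the zero point 5776 were higher and 355 lower (94.2%). Quantile normalisation gave 2341 higher and 1770 lower (56.9%). All 3381 probes that rose stayed called without centring, and 27.2% of those that fell. After quantile normalisation the order was reversed, with 68.4% of the rises and 99.5% of the falls still called. No called probe changed sign under any of the 3 scalings.

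**Figure D4:**
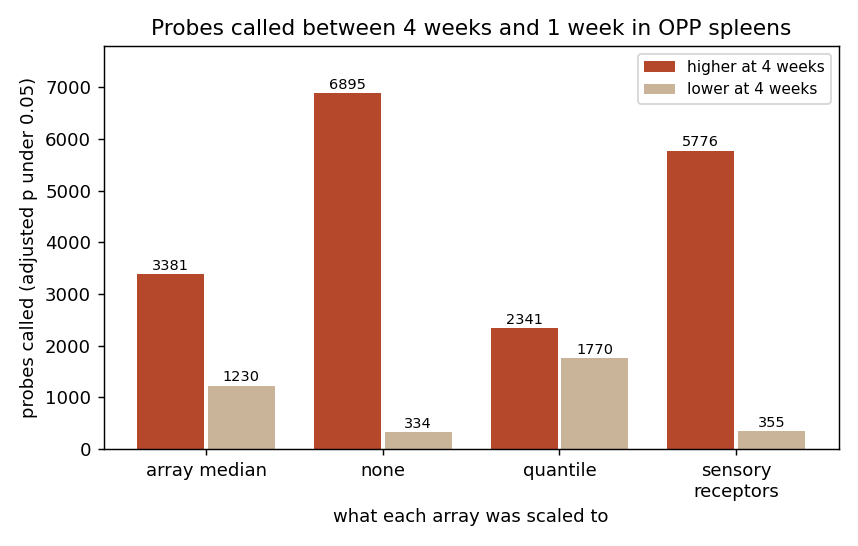
Numbers of probes called higher and lower at OPP 4 weeks than at OPP 1 week under each way of scaling the arrays. The higher count runs from 2341 to 6895 and the lower from 334 to 1770.

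In water-drinking mice the same comparison of times was made on other arrays. There 1687 genes rose (11.4%) and 721 fell (4.89%). Of the water 1-week arrays, replicate 2 had an acinar median of -6.63. That is the floor of its values, a ratio of 0.01 at which 20 of its probes stood, and not a measured level. Replicate 3 had a neutrophil median of -0.60, against 0.23 and 0.46 in replicates 1 and 2, and it correlated best with an OPP array at 18 hours. The 3423 probes called with water became 798 without water 4-week replicate 1, 1045 without water 1-week replicate 3, 1459 without water 4-week replicate 2, 2200 without water 4-week replicate 3, and 506 when the 6 water arrays were fitted alone, so the shares below rest on these arrays. Of the 3381 probes that rose with OPP, 3348 (99%) were also positive with water and 1401 (41.4%) were called higher, which are 60.4% of the 2320 called higher with water. Of the 1230 that fell with OPP, 1190 (96.7%) were negative with water and 436 (35.4%) were called lower, 39.5% of water's 1103. The difference between the time differences (OPP minus water) was called at 0 of 23982 probes (0%) by limma, with 1015 at an unadjusted p under 0.05. No gene can therefore be called particular to OPP here, and 1 probe of Ufl1, called only in other fits, is described further below.

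Lists placed side by side show where the values were nearest and farthest. Macrophage genes had a median difference of 0.66 with OPP and 0.55 with water, where 16 of 24 rose. Heat shock genes had 0.59 with OPP, against 0.22 with water, where 1 of 19 rose. Their median per array with water was 0.22, 0.06 and 0.12 at 4 weeks, against 0.08, -0.11 and -0.14 at 1 week. Bag3 differed by 0.90 with OPP and 0.22 with water, and its difference of time differences was 0.67 (unadjusted p = 0.000376, limma adjusted p = 0.923). Pdk4, a brake on pyruvate oxidation, differed by 0.74 with OPP and -0.34 with water, and P4ha1, a collagen hydroxylase, by 0.72 and 0.07. Per1 differed by 0.48 with OPP and -0.09 with water. B cell genes had 0.30 with OPP and 0.50 with water, where 10 of 15 rose, and neutrophil genes -0.53 with OPP and -0.75 with water, where 10 of 19 fell. Cybb, the oxidase subunit of phagocytes, differed by -0.17 with OPP and 0.57 with water. For none of the single genes did the difference between drinks pass after adjustment, and the list medians were not tested.

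Over the 3 times with OPP, the heat shock list's median was -0.28, -0.36 and -0.47 at 18 hours, then 0.11, -0.06 and 0.09 at 1 week, and 0.71, 0.32 and 0.63 at 4 weeks. The arrays of the 3 times did not overlap. Such a climb was not limited to heat shock genes. With OPP the erythroid gene Lmo2 was at -0.71, -0.87 and -0.46 at 18 hours. It was at 0.04, -0.07 and 0.08 at 1 week, and at 0.46, 0.47 and 0.50 at 4 weeks. The erythroid genes Tal1, Rhag and Ermap also climbed without overlap, whereas Hba-a1 overlapped between 18 hours and 1 week. Water-drinking mice had low erythroid values at 18 hours too. There the median of 8 erythroid transcription and signalling genes was -0.47, -0.82 and -0.40 at 18 hours. It was 0.01, 0.16 and -0.65 at 1 week, and 0.19, 0.05 and 0.02 at 4 weeks.

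**Figure D5:**
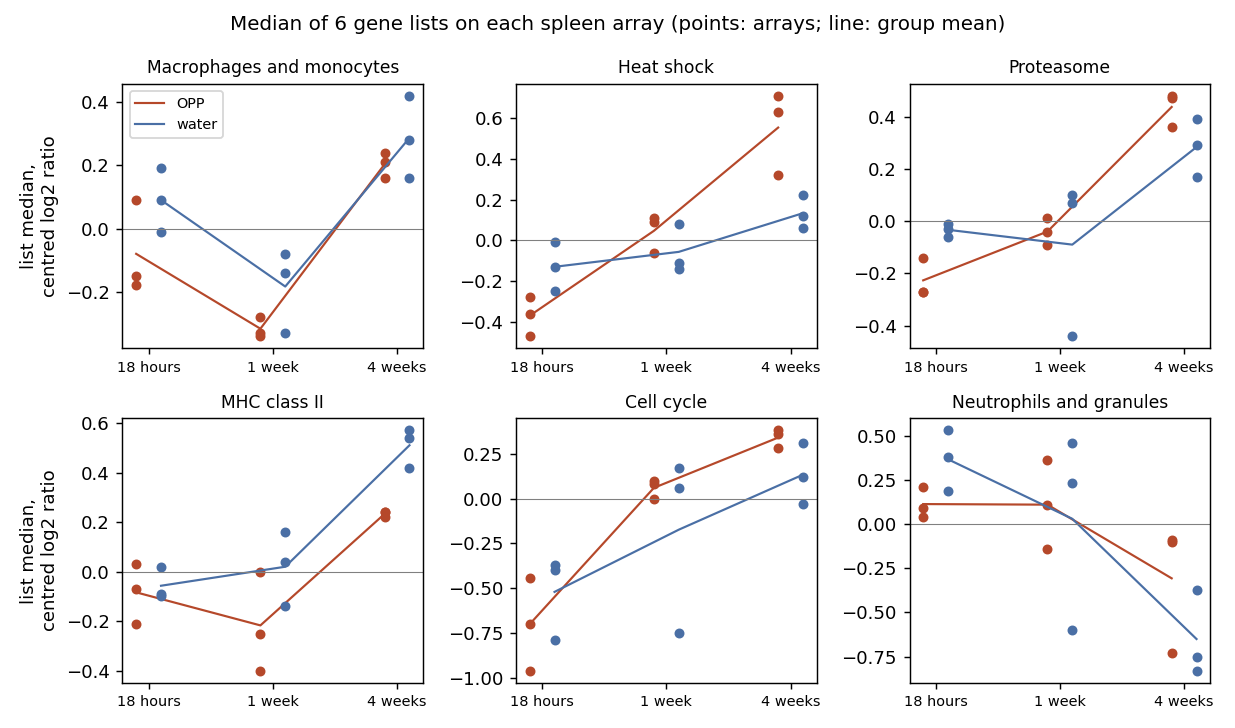
Median centred log2 ratio of 6 gene lists per array (vertical axis) at 18 hours, 1 week and 4 weeks, for OPP and water, with lines through the group means. The heat shock medians with OPP lie between -0.47 and -0.28 at 18 hours, between -0.06 and 0.11 at 1 week, and between 0.32 and 0.71 at 4 weeks.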

How the data were processed

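RNA from spleen and liver was prepared with RNeasy, amplified with Ambion TotalPrep, biotin-labelled and hybridised to Illumina arrays, per the labels' protocols. The deposited value table holds, for each probe, a linear ratio to its median over the 18 arrays of its tissue, as the values themselves show; the authors' normalisation and the genome build are not given in the sources used here. A second table of 72 per-sample columns, whose names match no label, was not used. Depth has no counterpart on arrays, and the number of arrays limits the precision.

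Log2 ratios of 18 spleen arrays were centred on each array's median and fitted by group in limma 3.58.1 (R 4.3.3, 12 residual degrees of freedom). Of 23982 probes, 19344 had 1 gene symbol. Lists (39, with 710 of 827 genes measured) and members were chosen with earlier results of these data known. Named genes were up to 15 per direction by size among called genes without overlap, up to 8 per direction called on every probe, called list members and up to 6 per list of smallest p, up to 6 per sign for the difference between drinks, and Igha, Jchain and Cd79b. Other list members not called, and immunoglobulin segments, were chosen after their values were seen. The fit was tested on simulated data. Alternatives were other scalings, probe filters, thresholds, weights and left-out arrays.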

Additional observations from a re-analysis of the deposited data

Results flagged for a closer look

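The time difference of 1 probe of Ufl1, an enzyme of the ufmylation pathway, ran one way with OPP and the other way with water in every array. It was at -0.04, 0.04 and 0.11 at OPP 4 weeks, against -0.24, -0.14 and -0.43 at OPP 1 week, a difference of 0.31. With water it was at -0.03, 0.13 and -0.12 at 4 weeks, against 4.08, 3.80 and 3.99 at 1 week, a difference of -3.96. The difference of time differences was 4.27 (limma adjusted p = 0.923), and on the other probe of the gene it was -0.08. In 1 of the 3 water arrays at 18 hours the first probe was also high, at 3.58, with the others at -0.10 and -0.17. Fitted without water 18-hour replicate 2, the difference of time differences of the first probe was called (limma adjusted p = 3.33e-12). It was also called with the compared arrays alone (limma adjusted p = 2.75e-10). The 0.923 thus depends on the 18-hour water arrays, which lie outside the groups compared.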

How the results depend on the processing

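No probe called in OPP spleens changed sign under any scaling, weighting or left-out array run. The 4611 probes called between OPP 4 weeks and OPP 1 week became 7229 without centring, 6932 with array weights and 1619 at an adjusted p under 0.01, and ranged from 2018 (without OPP 1-week replicate 1) to 5796 (without water 1-week replicate 3) when 1 array was left out. The 3423 called with water became 6263 without centring, 5491 centred on sensory receptors, 2184 after quantile normalisation, 506 with the compared arrays alone and 549 at an adjusted p under 0.01, and ranged from 798 (without water 4-week replicate 1) to 4625 when 1 array was left out. The difference between drinks was called at 0 probes, and at 1 after quantile normalisation, with the compared arrays alone and with array weights, and at 0 to 1 when 1 array was left out. That probe is 1 of 2 for Ufl1, and the other differed by -0.12 with OPP. Among genes not called, signs changed for Hsf2 (0.00 after quantile normalisation, -0.02 to 0.12 when 1 array was left out), Dnaja1 (0.10 without centring, 0.08 centred on sensory receptors, -0.09 to 0.04 when 1 array was left out), Lta (0.13 without centring, 0.11 centred on sensory receptors, -0.09 to 0.06 when 1 array was left out), Jchain (-0.16 to 0.39) and Cybb (-0.33 to 0.01). The cause of these shifts was not tested. Arrays of the same replicate number deviated together only weakly (r of 0.17, 0.08 and 0.07), so the numbers were not taken to pair arrays, although each array correlated best with its own number; the replicate block gave 4397 calls. The centring on sensory receptors was chosen after seeing the data, as were the alternatives for immunoglobulin probes. With 3 arrays a group, an exact permutation test of a single probe cannot go below 0.1.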

Other observations

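Counts for other gene groups of OPP spleens, 4 weeks against 1 week, are to be read beside the 17% of all genes that rose. Endothelial genes rose at 6 of 13 (46.2%, median 0.23), among them the sinusoidal scavenger receptor Stab2 by 0.54, Plvap by 0.56 and Pecam1 by 0.45. Extracellular matrix genes rose at 5 of 29, near that share of all genes, with the proteoglycan Dcn at 0.73. The protease inhibitors Timp2 and Timp3 rose by 0.62 and 0.47. Of the other Dcn probes 2 rose, by 0.70 and 0.56, and 1 fell, by 0.38. Lysosomal cathepsins went both ways. Ctsz rose by 0.79, Ctsc by 0.72 and Ctsb by 0.42, while Ctsa fell by 0.36 and Ctsl by 0.40, and another Ctsa probe differed by 0.27. Of 23 genes of endoplasmic reticulum stress and folding, 7 rose, including the chaperone Hspa5 by 0.42 and the translocon subunit Sec61b by 0.53, and Dnajb9 fell by 0.33. ATF4 targets had 3 of 14 up (21.4%), with Ddit4 at 0.73 and Cebpb at 0.64, and Sesn2 fell by 0.32.

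Bst2, a surface protein of plasmacytoid dendritic cells that interferon also induces, rose by 0.73, and 2 of 10 dendritic cell genes rose in all (20%). The platelet chemokine Ppbp rose by 0.56, as 1 of 10 platelet genes (10%). Of 11 p53 targets 2 rose (18.2%), Ccng1 by 0.40 and Trp53inp1 by 0.49. Of 14 cholesterol synthesis genes 2 rose (14.3%), Lss by 0.35 and Sqle by 0.45. These shares lay near or below the 17% of all genes. Among 11 adipocyte genes Lpl rose by 0.58 and Fabp4 fell by 0.44. Other probes of Lpl, Ccng1 and Sqle differed by -0.24, -0.13 and -0.01. Of these calls, those of Stab2, Dcn, Timp2, Ctsz, Ctsc, Ctsb, Sec61b, Cebpb and Bst2 stayed whichever of the 6 compared arrays was left out, and the others did not. The falls of Ctsa, Ctsl, Dnajb9, Sesn2 and Fabp4 were not called without centring. None of 5 eosinophil, 6 pancreatic islet or 9 skeletal muscle genes was called.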
